A study of Mus musculus with 79 samples.

Results

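Cells expressing T (Brachyury) were followed from Theiler stage 12 (TS12) to Theiler stage 13 (TS13) in wild-type (WT) mouse embryos, over all genes that reached a working level in at least 1 of the stages. Each stage is 1 library, so the comparison sets 1 RNA-seq library against 1 other. Genes with at least 5 FPKM (fragments per kilobase of transcript scaled to the mapped fragments of the library) in either library were counted, which left 7794 genes of the 23983 symbols in the table. Small RNA genes, numbered gene models and clones, mitochondrial genes, ribosomal protein pseudogenes and joined symbols were not counted, and neither were T, Sox2 and Tbx6, the genes behind the sorts and knockouts. The members were thus chosen by level alone and not by their change.

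The study concerns neuro-mesodermal progenitors and comprises 79 samples, most of them not used here. The cells used here were sorted by flow cytometry for T from the tail end of embryos grown by tetraploid complementation, in which ES cells form the embryo proper. The WT embryos carry the strain label C57BL/6N. Beside them stand T+ cells of T knockout (T KO) embryos, labelled T2J/2J and C57BL/6J, at the same 2 stages and with 1 library each. Strain label and genotype thus cannot be told apart in that pair. Y-linked genes differed as well. Ddx3y was at 0.373 FPKM at TS12 and 0.151 at TS13 in WT cells, and at 11.0 and 11.5 in T KO cells. Eif2s3y was at 0.0257 and 0 FPKM in WT cells, and at 19.8 and 32.1 in T KO cells. Such differences cannot be told apart from genotype either. Samples were pooled, about 20000 cells went into each extraction, and strand-specific libraries were made after depletion of ribosomal RNA and on-column DNase treatment, with 15 cycles of PCR. The number of embryos in a pool is not given in the sources used here. For these 4 groups the labels name no agent, and all 4 share the tetraploid hosts, whose cells form little of the embryo proper.

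T is a T-box transcription factor of the primitive streak, the tail bud and the nascent mesoderm. In the tail end of the embryo, progenitors maintained by Wnt and FGF signals are laid down as paraxial mesoderm or spinal cord while the body axis grows, and Hox genes are switched on in the order of their position along each cluster, from the anterior to the posterior end. Retinoic acid made in the somites opposes FGF signalling, and Cyp26a1 degrades it in the tail. The T+ gate can also take in mesoderm that has left the streak, so genes of lateral plate, vessels and blood may be read in such a sort. Whether the cells that gave the reads of these genes expressed T was not tested. In these bulk samples, fewer cells of a type and less RNA per cell cannot be told apart.

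The genes of the sort were read first. T was at 69.8 FPKM at TS12 and 76.4 at TS13 in WT cells, against 4.61 and 3.32 in T KO cells. The targeted gene was therefore low in both libraries labelled T KO. Tbx6, another T-box factor, expressed in presomitic mesoderm, was at 21.4 and 23.2 FPKM in WT cells, and Sox2, a factor of neural progenitors, at 10.2 and 12. All 3 differed by at most 0.21 (log2) between the WT stages. The 5 lists of white cells, notochord and node, visceral endoderm, surface ectoderm and cardiac cells had 0 members at 5 FPKM in either WT library, and their summed levels there were at most 9.75 FPKM.

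The WT library of TS12 stood apart from the other 3 T+ libraries, and this bears on what follows. In it, 1053 of 1487 sensory receptor genes (70.8%), which such cells should not use, were above 0 FPKM, against 35 to 39 (2.35% to 2.62%) in the others. The level was low, with a median of 0.0952 FPKM and a 95th percentile of 0.443. Only 7.99% of the kept genes were listed at 0 there, against 27.3% to 29.3%. Estimated depth was 21.95 M fragments at TS12 and 40.08 M at TS13, so that a gene of 1 kb at 5 FPKM rests on about 110 and 200 fragments, with a counting error of 9.55% and 7.06%. These errors cover counting only.

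**Figure D1:**
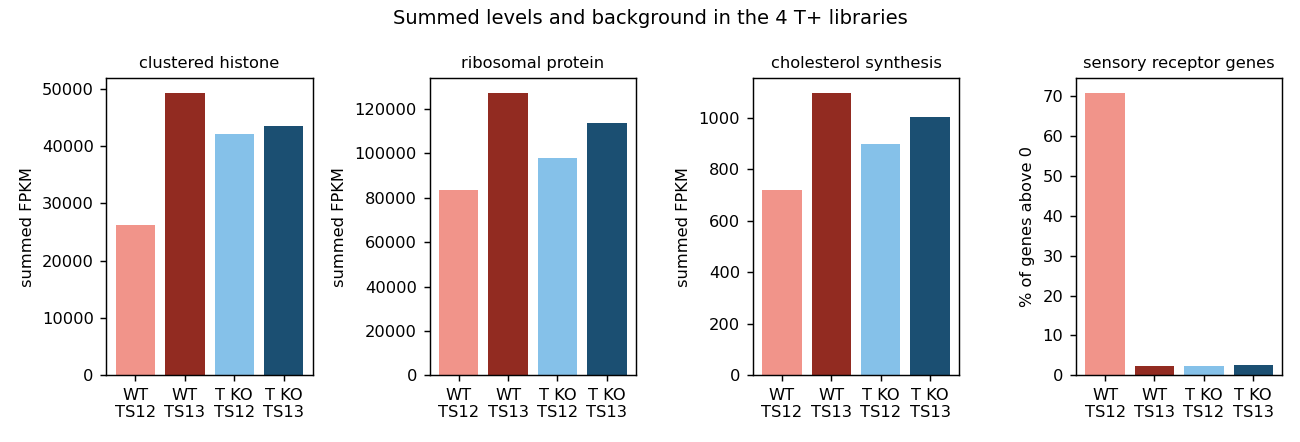
Summed FPKM of the clustered histone, ribosomal protein and cholesterol synthesis genes and the percentage of sensory receptor genes above 0, in 1 library per bar. The WT TS12 bar is the lowest of the 4 in the 3 sums and stands at 70.8% in the last panel, against 2.35% to 2.62% in the others.

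Between the WT stages most genes stayed close together. The median difference, TS13 minus TS12 of log2(FPKM + 1), was 0.05 over the 7794 genes, with a 5th percentile of -0.38 and a 95th of 0.65, and 89.5% of genes lay within 0.5 of 0. At least 2-fold higher at TS13 were 75 genes (0.962%) and at least 2-fold lower 30 genes (0.385%). Adding 1 to each FPKM understates the change of low genes. A gene that reached 5 FPKM only at the stage where it was high had to differ, so counts and medians of lists are descriptions of their counted members and support nothing further. Just inside the fold lay Sepw1 (50.2 and 101.6 FPKM) and just outside it Dbi (165.8 and 331.5 FPKM). At the edge of the level, Gli1 entered with 5.00 FPKM at TS12 and Syt11 stayed just under it. With 1 library per stage there is no test of this pair.

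A test was possible only over both genotypes. The stage effect was fitted with limma on log2(FPKM + 1) of the 4 T+ libraries, with genotype as a term, and adjusted by the Benjamini-Hochberg method over 8181 genes. It asks how alike the stage difference was in WT and T KO cells and does not measure the spread between embryos of 1 genotype. Below, "rose" and "fell" are used only of genes that passed it at an adjusted p under 0.05. By that test 16 genes rose (0.196%) and 5 fell (0.0611%), and 742 had an unadjusted p under 0.05. With upper-quartile scaling 5 rose and 4 fell, and without the genotype term 1 rose and 0 fell. Aldh1a2, Hbb-bh1, Igfbp5, Loxl2, Pgm2, Hist3h2ba and Rps27 passed in only 1 of the 6 alternatives of the fit, that with background subtracted. Of the 75 WT genes at least 2-fold higher 11 rose, and of the 30 lower 5 fell. These shares are no independent support, since the WT pair enters the fit itself.

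**Figure D2:**
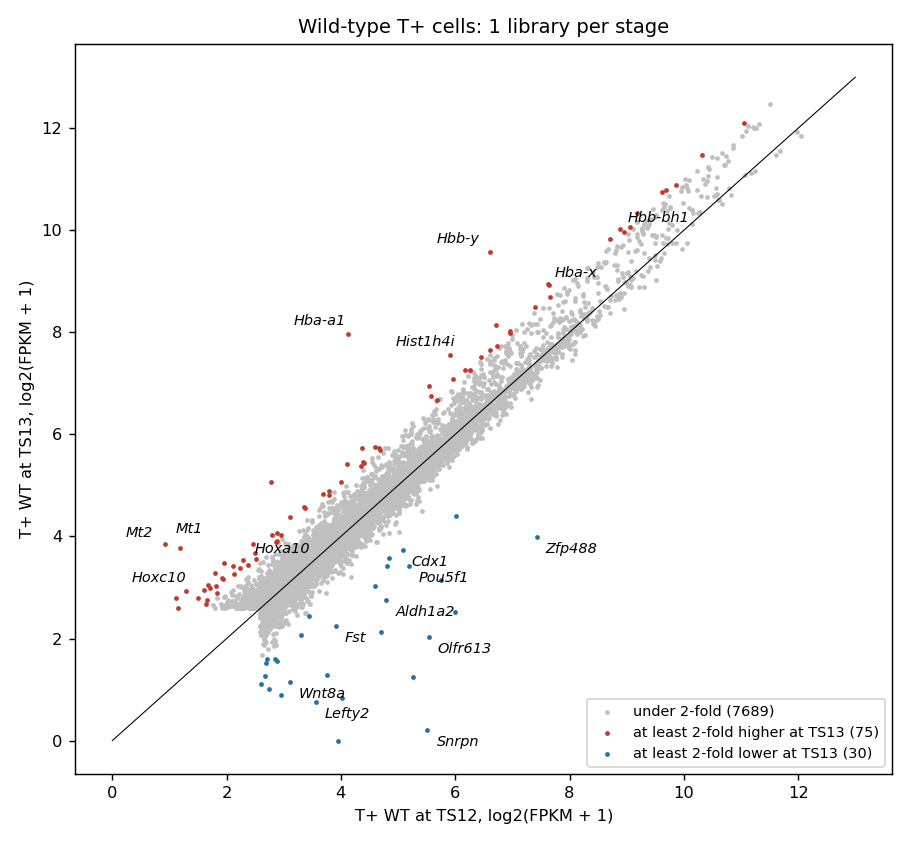
Level of each of the 7794 counted genes in WT T+ cells at TS12 (horizontal) and TS13 (vertical), as log2(FPKM + 1), with the line of equality. The 75 genes at least 2-fold higher at TS13 are red and the 30 lower are blue, and globins, metallothioneins and posterior Hox genes lie among the points farthest above the line.

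Embryonic globins were among the genes that rose. These chains make up the haemoglobin of the primitive red cells that form in the yolk sac. Hbb-y, an embryonic beta-like globin, was at 97.1 FPKM at TS12 and 759 at TS13 in WT cells, and at 97.7 and 620 in T KO cells. Both TS13 libraries thus lay far above both TS12 libraries. In limma the stage effect of Hbb-y was 2.80 (log2, SE 0.183, adjusted p = 7.6e-05), and it was the only gene that passed under every alternative of the fit. Hba-x, the embryonic alpha-like globin, rose from 196 to 493 FPKM in WT cells and from 118 to 494 in T KO cells (1.69, SE 0.212, adjusted p = 0.0085 in limma). Hbb-bh1, another embryonic beta-like globin, was at 474 and 1037 FPKM in WT cells and at 161 and 670 in T KO cells, an effect of 1.59 (SE 0.244, adjusted p = 0.031 in limma). For Hbb-bh1 the WT cells of TS12 lay closer to the TS13 libraries than the T KO cells did.

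The adult-type alpha globins share a near-identical sequence and cannot be read singly. Hba-a1 was at 16.4 and 249 FPKM in WT cells and 45.0 and 535 in T KO cells, while Hba-a2 was at 227 and 424, and at 49.3 and 0. The stage effect of Hba-a1 was 3.70 (SE 0.163, adjusted p = 2.9e-06 in limma), the largest rise, but the sum of both genes went from 243.6 to 673.4 FPKM in WT and from 94.3 to 535.1 in T KO cells. On the summed level the differences were 1.46 and 2.49 (log2), well under that of Hba-a1 alone in the WT pair. Both single values are therefore uncertain.

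Of the 17 red cell genes fixed as a list, 10 reached 5 FPKM in a WT library. At TS13 6 of these were at least 2-fold higher, against 0.962% of all counted genes, with 0 lower. Their median difference was 1.23, against 0.05 over all counted genes, and 1.90 in the T KO pair. In limma 5 of 10 tested members rose, against 0.196% of all genes tested. The fifth beside the globins was Slc4a1, the anion exchanger of the red cell membrane, at 2.87 and 10.2 FPKM in WT cells and 1.85 and 8.34 in T KO cells (1.62, SE 0.230, adjusted p = 0.019). The sixth in the WT count was the beta globin Hbb-b2, at 2.02 and 6.69 FPKM, which missed the limma threshold (1.70, adjusted p = 0.073).

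Other genes of the red cell list differed less between the WT stages. Alas2, which makes the first intermediate of haem in red cells, was at 5.42 and 6.40 FPKM. The transcription factors Gata1 (2.28 and 2.54 FPKM) and Klf1 (2.67 and 2.16 FPKM), which drive red cell genes, stayed under 5 FPKM, as did Hemgn (1.85 and 4.45 FPKM) and the factor Nfe2 (1.99 and 4.02 FPKM). The transferrin receptor Tfrc, which proliferating cells use as well, was at 48.2 and 58.7 FPKM. Summed over the list, the level went from 1089 to 3070 FPKM in WT and from 531 to 2403 in T KO cells, and every member was above 0 in both WT libraries.

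The sequences just upstream of Hba-x and Hbb-y are shown because both genes rose together in both genotypes. They are 250 bases before the RefSeq gene start (GRCm38.p6), written 5′ to 3′ on the gene's own strand, and capitals mark matches, on either strand, to 3 short motifs. The first is CACCC, a box bound by Klf1-like factors. The second, GATAA, is the core bound by Gata factors. The third, CCAAT, is a common promoter box.
Hba-x, chr11:32276350-32276599, plus strand: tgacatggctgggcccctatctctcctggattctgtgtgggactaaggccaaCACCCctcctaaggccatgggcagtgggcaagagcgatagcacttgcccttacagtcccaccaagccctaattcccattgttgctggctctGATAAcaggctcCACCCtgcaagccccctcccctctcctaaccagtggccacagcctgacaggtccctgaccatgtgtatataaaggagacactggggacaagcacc
Hbb-y, chr7:103853208-103853457, minus strand: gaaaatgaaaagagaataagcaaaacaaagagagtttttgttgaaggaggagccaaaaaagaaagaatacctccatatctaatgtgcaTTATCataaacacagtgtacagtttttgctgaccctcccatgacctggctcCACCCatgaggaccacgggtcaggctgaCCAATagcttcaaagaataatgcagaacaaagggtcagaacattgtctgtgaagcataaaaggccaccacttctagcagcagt
Hba-x held 2 CACCC, 1 GATAA and 0 CCAAT matches, and Hbb-y 1 of each. Among 32851 RefSeq promoter windows of the same length, 52.0% held CACCC, 22.6% GATAA and 33.8% CCAAT, so matches this short are common.

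Metallothionein genes rose as well. They encode small cysteine-rich proteins that bind zinc and copper, and their transcription responds to zinc through the factor Mtf1. Mt1 was at 1.26 FPKM at TS12 and 12.7 at TS13 in WT cells, and at 6.39 and 32.2 in T KO cells (2.38, SE 0.187, adjusted p = 0.00024 in limma). Mt2 was at 0.901 and 13.4 FPKM, and at 1.38 and 28 (3.26, SE 0.235, adjusted p = 0.00014 in limma). In both genotypes the TS13 library was the higher for each gene, and the WT TS12 library was the lowest of the 4. The other members of the list stayed below 5 FPKM. These were Mt3 (0.0847 and 0 FPKM) and the zinc exporter Slc30a1 (3.58 and 3.69 FPKM), another Mtf1 target. The red cell list rose in the same libraries, and its part in the metallothionein values was not tested.

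Windows upstream of the metallothionein genes are shown because the promoters of these genes are known for metal response elements, whose core is written here as TGCNCNC. They are again 250 bases before the RefSeq gene start (GRCm38.p6), with capitals for matches on either strand.
Mt1, chr8:94178839-94179088, plus strand: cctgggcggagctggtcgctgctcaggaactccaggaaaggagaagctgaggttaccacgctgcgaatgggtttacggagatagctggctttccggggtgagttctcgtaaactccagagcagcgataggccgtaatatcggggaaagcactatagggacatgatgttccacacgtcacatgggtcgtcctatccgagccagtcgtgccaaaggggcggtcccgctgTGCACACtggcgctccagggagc
Mt2, chr8:94172368-94172617, plus strand: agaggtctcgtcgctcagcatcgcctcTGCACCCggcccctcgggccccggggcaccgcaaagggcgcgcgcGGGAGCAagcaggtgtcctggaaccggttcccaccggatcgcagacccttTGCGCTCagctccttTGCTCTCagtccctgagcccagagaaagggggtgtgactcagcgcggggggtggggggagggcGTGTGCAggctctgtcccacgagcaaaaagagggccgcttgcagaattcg
The Mt2 window held 5 matches and the Mt1 window 1. Each window ends at the RefSeq gene start, and matches beyond that point were not counted. If transcription starts farther downstream, the window misses promoter sequence, so these counts do not compare the promoters of Mt1 and Mt2. At least 1 match was present in 44.4% and at least 3 in 4.65% of 32851 windows.

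Hoxc10 and Hoxa10 were higher at TS13 and did not pass the test. Hox factors give cells their position along the body axis, and groups 10 to 13 mark the posterior trunk and tail. Hoxc10 was at 1.45 FPKM at TS12 and 6.60 at TS13 in WT cells, and at 0.679 and 3.09 in T KO cells. Hoxa10 was at 3.91 and 10.6 FPKM, and at 1.18 and 5.79. In each genotype the TS13 library was the higher, and at each stage the WT library was. Neither passed limma over all genes (Hoxa10 1.44, SE 0.248, adjusted p = 0.055, and Hoxc10 1.46, SE 0.351, adjusted p = 0.17). These were the only 2 of the 12 genes of groups 10 to 13 to reach 5 FPKM, and both did so at TS13 only, so their direction says nothing of the other 10.

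Below that level Hoxd10 was at 1.01 and 4.03 FPKM in WT cells and at 0.156 and 0.995 in T KO cells. Groups 11 to 13 were at most 1.44 FPKM in either WT library, the level of Hoxd13 at TS13. Hoxa13 was at 0.867 FPKM at TS12 and 0.038 at TS13 in WT cells, and at 0.659 and 0.121 in T KO cells. Hoxb13, Hoxc11, Hoxc12, Hoxc13 and Hoxd12 were listed at 0 at TS13 and at most 0.216 FPKM at TS12 in WT cells, under the 95th percentile of that library's background.

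Hox genes of groups 5 to 9 had a median difference of 0.36 over 14 counted genes, of which Hoxc9 alone was at least 2-fold higher. Hoxc9 rose from 12.9 to 28.6 FPKM in WT cells and from 22.4 to 43.5 in T KO cells (1.01, SE 0.148, adjusted p = 0.024 in limma). The 4 group 9 genes differed among themselves. Hoxa9 was at 45.5 and 76.5 FPKM and Hoxd9 at 7.07 and 11.5, whereas Hoxb9 was at 75.1 and 77.5. Hoxd8 (18.1 and 31.4 FPKM) and Hoxc8 (65.9 and 92.8 FPKM) were higher at TS13, while Hoxb8 (17.5 and 14.5 FPKM) and Hoxb6 (24.9 and 20.1 FPKM) were lower, all by less than 2-fold.

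Hox genes of groups 1 to 4 had a median difference of 0.00 over 12 genes, with 6 above 0 and 6 below and a range of -0.32 to 0.46. None was 2-fold apart. Hoxd1 (38.6 and 39.6 FPKM) and Hoxb2 (37.1 and 34.7 FPKM) are examples. In T KO cells the medians were 0.05 for groups 1 to 4 and 0.32 for groups 5 to 9.

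**Figure D3:**
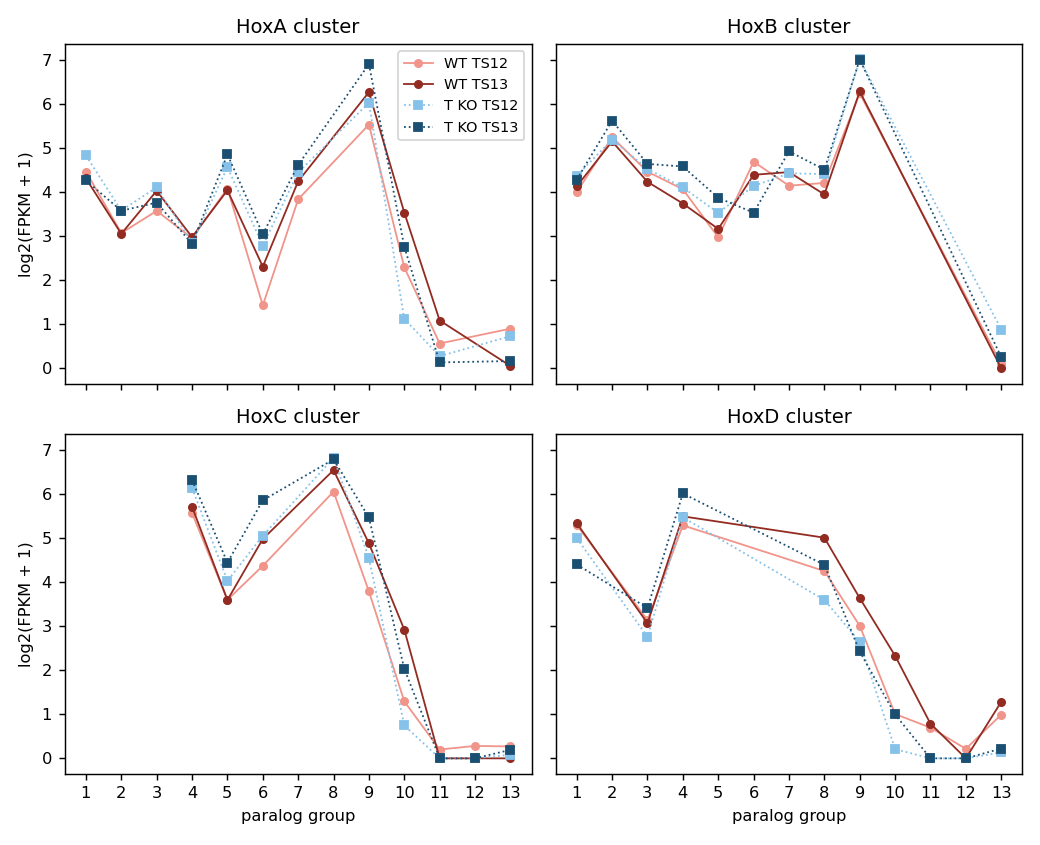
Level of each Hox gene, as log2(FPKM + 1), by paralog group in the 4 clusters, with 1 line per T+ library. The WT lines of TS12 and TS13 run close together over groups 1 to 4, and the TS13 line lies above at Hoxa10, Hoxc10, Hoxc9 and Hoxd10.

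The cofactors of Hox proteins differed in the WT pair by less than 2-fold. All 6 counted Pbx and Meis genes were lower at TS13, with a median of -0.24 and a range of -0.40 to -0.10. Meis1 was at 13.3 and 9.83 FPKM and Meis2 at 18.1 and 15.9 in WT cells. The T KO median was 0.57, with Meis1 at 7.35 and 12.8 FPKM. The WT and T KO medians have opposite signs, and this difference was not tested.

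Besides the histone gene Hist1h2ap, the genes that fell were Pou5f1, Cdx1, Fst and Aldh1a2. Pou5f1 (Oct4), a pluripotency factor that persists in the caudal epiblast, was at 35.7 FPKM at TS12 and 9.72 at TS13 in WT cells, and at 12 and 1.40 in T KO cells. It fell by 2.11 (log2, SE 0.196, adjusted p = 0.00079 in limma). The WT library of TS12 was the highest of the 4, at least 2-fold above each of the others. The other counted genes of the epiblast list were within 2-fold. Dnmt3b, a de novo DNA methyltransferase, was at 31.7 and 24.7 FPKM, Lin28a, an RNA-binding protein of early embryos, at 389 and 366, and Sall4, a zinc finger factor, at 55.2 and 64.5. The median of its 6 counted genes was -0.06. Germ cells also express Pou5f1, and beside it the germ cell gene Dppa3 was at 8.19 and 8.39 FPKM in WT cells.

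Cdx1, a caudal homeobox factor upstream of Hox genes, was at 32.8 and 12.4 FPKM in WT cells and at 50.4 and 8.84 in T KO cells, and fell by 1.86 (SE 0.219, adjusted p = 0.0062 in limma). Its relatives differed from it. Cdx2 was at 68.4 and 68.0 FPKM and Cdx4 at 136 and 151 in WT cells. Without T, Cdx2 was at 93.2 and 65.6 FPKM and Cdx4 at 205 and 98.2.

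The axial progenitor list of 18 genes had 16 at 5 FPKM, with 0 at least 2-fold higher and 2 lower, Cdx1 and Wnt8a. Of all counted genes 0.385% were at least 2-fold lower. Wnt8a, a ligand of the early streak, was at 7.59 and 1.22 FPKM in WT cells and at 15.5 and 8.55 in T KO cells, and missed the limma threshold (-1.37, SE 0.267, adjusted p = 0.085). Other ligands stayed within 2-fold in WT cells. Wnt3a, which maintains the progenitors, was at 16.3 and 18.6 FPKM, Fgf8 at 25.1 and 30.1, and Fgf17 at 20.3 and 30.2. Cyp26a1 was at 45.1 and 77.6 FPKM, and Nkx1-2, a homeobox marker of caudal progenitors, at 35.0 and 25.9. The list's median was 0.09 in WT cells. In T KO cells it was -0.80, with 7 of the same 16 genes lower by at least 2-fold, against 0.809% of all counted genes there. Examples are Wnt3a (12 and 1.66 FPKM) and Fgf8 (17.2 and 4.49 FPKM). Whether the 2 genotypes differed in this list was not tested.

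Wnt targets and antagonists likewise had a median of 0.11 in WT cells, with 0 of 12 genes 2-fold apart, and -0.73 in T KO cells. Axin2, a feedback inhibitor and direct target, was at 39.7 and 43.4 FPKM in WT cells, and Lef1, a nuclear effector, at 61.1 and 70.4. FGF targets had a median of 0.20 in WT cells, with Dusp6 at 44.5 and 52.2 FPKM and Etv4 at 20.3 and 17.5. BMP genes had 0.11, with the target Id1 at 46.3 and 54.5 FPKM. None of the 10 FGF targets or 10 BMP genes was 2-fold apart in WT cells.

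Aldh1a2, which makes retinoic acid in somites, was at 26.7 FPKM at TS12 and 5.79 at TS13 in WT cells, and at 5.76 and 2.50 in T KO cells. It fell by 1.49 (SE 0.251, adjusted p = 0.048 in limma), and the WT TS12 library alone was high. In the retinoic acid list it was the only 1 of 8 counted genes 2-fold apart. Crabp2, which binds retinoic acid, was at 139 and 213 FPKM, and the receptor Rarg at 35.3 and 45.0.

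Fst, which encodes the activin and BMP antagonist follistatin, was at 14.0 and 3.73 FPKM in WT cells and 8.54 and 2.17 in T KO cells, and fell by 1.63 (SE 0.207, adjusted p = 0.0089 in limma). Lefty2, an antagonist of Nodal in nascent mesoderm, was at 10.8 and 0.689 FPKM in WT cells, and at 0.332 and 0.155 in T KO cells. The WT library of TS12 alone was above 1 FPKM, and Lefty2 did not pass the limma test (adjusted p = 0.49). Nodal itself was at 0.479 and 0.0119 FPKM, where the 95th percentile of the background of the TS12 library is 0.443. Of the other primitive streak genes Mixl1, a homeobox factor, was at 6.13 and 6.53 FPKM, while Eomes and Mesp1 stayed under 1.36.

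Somite genes other than Aldh1a2 and Fst were close. Meox1 was at 6.99 and 8.30 FPKM and Foxc1 at 10.4 and 12.4. Pax1, Uncx and Myf5, of maturing somites, were listed at 0 at TS13 and above 0 but under 5 FPKM at TS12. The TS12 library listed only 7.99% of the kept genes at 0, against 28.1% at TS13, so no loss can be read from these zeros.

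**Figure D4:**
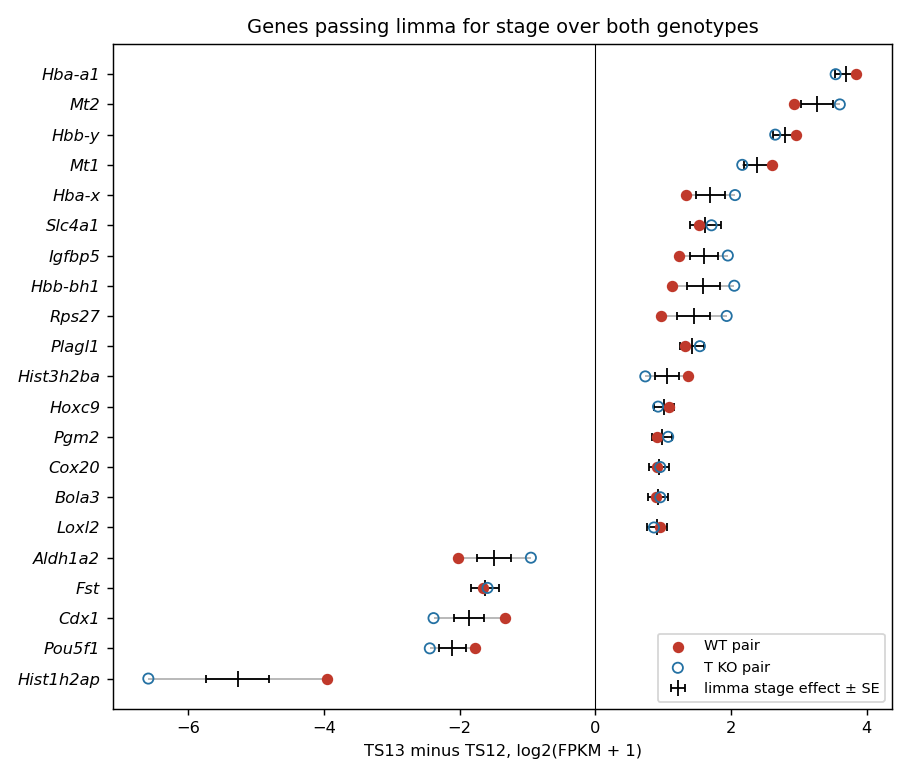
Difference TS13 minus TS12, in log2(FPKM + 1), of the 16 genes that rose and the 5 that fell in limma, for the WT pair (filled) and the T KO pair (open), with the fitted stage effect and its SE. Both points lie on the same side of 0 for every gene, and Hist1h2ap lies farthest left at -3.95 and -6.59, with both TS13 values at 0.

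Presomitic mesoderm genes stayed within 2-fold in WT cells. Of 11 counted, 0 were 2-fold apart, and the median was 0.19. Msgn1, a basic helix-loop-helix factor that drives the presomitic programme, was at 56.9 and 42.5 FPKM, Rspo3, an enhancer of Wnt signalling, at 49.2 and 56.1, and Cited1, a coactivator, at 138 and 148. The segmentation clock gene Hes7 was at 9.36 and 12 FPKM.

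Notch pathway genes were slightly higher at TS13 in WT cells, with 12 of 13 above 0, a median of 0.39 and 0 at 2-fold. The ligand Dll1 was at 46.2 and 49.5 FPKM. Larger differences were found for the targets Hes1 (32.7 and 47.5 FPKM), Hey1 (14.0 and 22.1 FPKM) and Nrarp (19.4 and 29 FPKM). In T KO cells the median was 0.06, and 0 of 13 tested passed limma.

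Lateral plate and intermediate mesoderm genes were close to equal, with a median of -0.05 and 0 of 8 genes 2-fold apart. Foxf1, a factor of splanchnic mesoderm, was at 38.8 and 37.0 FPKM, Osr1, of intermediate mesoderm, at 18.6 and 17.0, and Hand1 at 15.0 and 14.7.

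Genes of vessels and their precursors were higher in WT cells, with 10 of 11 counted above 0, a median of 0.47 and 2 at least 2-fold. Of all counted genes 0.962% were at least 2-fold higher. Etv2, which starts the vessel and blood programme, was at 6.26 and 13.9 FPKM in WT cells and 7.16 and 8.00 in T KO cells. Esam, an adhesion molecule of endothelium, was at 2.16 and 5.73 FPKM, and 2.62 and 4.45. For Etv2 the WT library of TS13 alone was high. The receptor Kdr was at 31 and 40.4 FPKM, the vessel cadherin Cdh5 at 4.82 and 9.08, and Tal1, a factor of blood and vessel precursors, at 4.56 and 7.91. Over the 18 genes the summed level was 142 and 183 FPKM in WT cells and 111 and 113 in T KO cells, and 0 passed limma. Ramp2, a receptor partner in endothelium, is outside the list and was at 4.49 and 13.5 FPKM.

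Neural genes at 5 FPKM numbered 7, with a median of 0.37. Fabp7, which binds fatty acids in radial glia and neural progenitors, was at 6.34 and 1.96 FPKM and was the only one 2-fold apart, in a library pattern where WT TS12 stood above the other 3. Zic2, a zinc finger factor, was at 5.67 and 8.78 FPKM, Irx3, a homeobox factor of the neural tube, at 4.98 and 7.13, and the adhesion molecule Ncam1 at 17.5 and 22.9. Sox1 and Sox3, factors of neural progenitors, stayed at or under 2.12 FPKM in WT cells at both stages. In T KO cells Sox1 was at 1.27 and 9.98 FPKM.

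**Figure D5:**
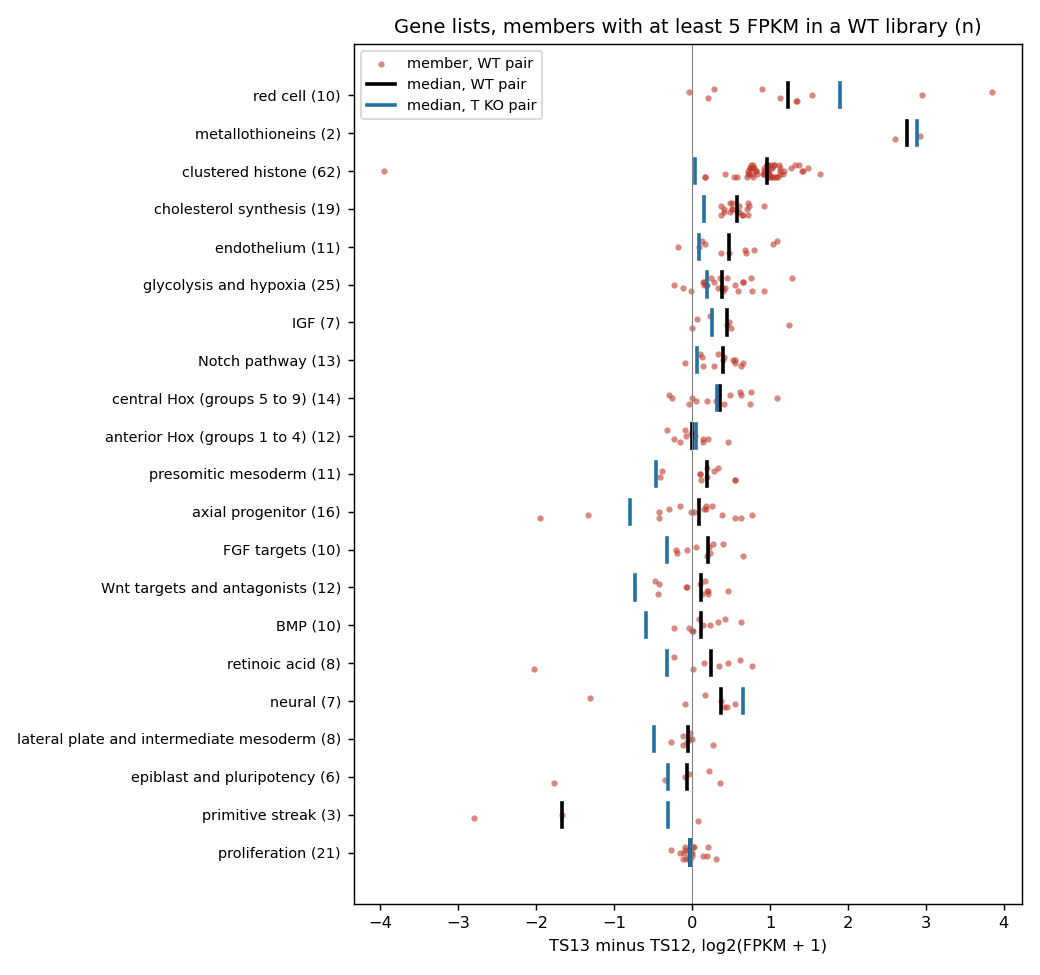
Difference TS13 minus TS12, in log2(FPKM + 1), of each list member with at least 5 FPKM in a WT library (points), with the median in the WT pair (black) and in the T KO pair (blue). Red cell genes and metallothioneins lie right of 0 in both pairs, clustered histones and cholesterol genes in the WT pair, and the blue median of the axial progenitor, Wnt target and BMP lists lies left of 0.

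Single genes of growth control rose in both genotypes. Igfbp5, an IGF binding protein, was at 2.82 and 8.02 FPKM in WT cells and at 6.57 and 28.3 in T KO cells (1.60, SE 0.207, adjusted p = 0.0096 in limma). Plagl1, an imprinted zinc finger factor, was at 3.32 and 9.75 FPKM, and at 6.92 and 22.0 (1.43, SE 0.176, adjusted p = 0.0084 in limma). Of 7 counted IGF genes Igfbp5 alone was 2-fold apart. The ligand Igf2 was at 185 and 262 FPKM and the receptor Igf1r at 17.6 and 24.3. Loxl2, a lysyl oxidase-like enzyme, rose from 11.7 to 23.8 FPKM in WT cells, and Pgm2, a phosphoglucomutase, from 12.7 to 24.7. Bola3 and Cox20, which serve mitochondrial iron-sulphur proteins and cytochrome oxidase assembly, rose from 37.5 to 70.5 FPKM and from 24.1 to 46.2.

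Imprinted genes as a list had a median of 0.12 over 21 genes. Besides Plagl1, the RNA Airn was at least 2-fold higher, at 4.73 and 10.9 FPKM. Snrpn was at 44.7 and 0.154 FPKM in WT cells against 25.8 and 17.7 in T KO cells. Its locus is shared by overlapping transcripts that the counting could split, so this value is uncertain. H19 was at 338 and 578 FPKM in WT cells and at 7.95 and 13.1 in T KO cells. The imprinted RNAs Meg3 (22.1 and 20.0 FPKM) and Rian (107 and 110 FPKM) in WT cells were at most 0.215 FPKM in T KO cells. The cause of these differences between the genotypes was not tested.

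Genes of glycolysis and the response to low oxygen were higher by less than 2-fold in most cases, with 22 of 25 above 0 and a median of 0.38 in WT cells, against 0.20 in T KO cells. Ndufa4l2, a mitochondrial protein induced by low oxygen, was the only one 2-fold apart, at 1.84 and 5.90 FPKM in WT cells and 1.35 and 9.12 in T KO cells, and it missed the limma threshold (1.69, SE 0.297, adjusted p = 0.059). Pdk1, which restrains entry of pyruvate into mitochondria, was at 16.5 and 28.5 FPKM and Bnip3, of mitophagy, at 60.1 and 115. The glucose transporter Slc2a1 was at 219 and 216 FPKM, and Ldha at 1525 and 1679.

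Cholesterol synthesis genes were all higher at TS13 in WT cells, 19 of 19, by 0.37 to 0.93 with a median of 0.57 and none at 2-fold. Msmo1, a sterol methyl oxidase, was at 73.7 and 141 FPKM, and Sqle, the squalene epoxidase, at 28.6 and 47.1. In T KO cells the median was 0.15. The summed level was 718 FPKM in WT cells at TS12, and 1098, 898 and 1004 in WT at TS13 and T KO at TS12 and TS13. The WT library of TS12 was thus the low one. It was the lowest for 18 of the 19 genes singly, against 31.1% of all counted genes. In limma 0 passed. The part of that library's state in this difference was not tested.

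The same held for histones. Clustered histone genes encode the replication-dependent histones, whose mRNAs end in a stem-loop in place of a poly(A) tail. Of 62 counted, 24 were at least 2-fold higher at TS13 in WT cells and 1 lower, against 0.962% and 0.385% of all counted genes. Their median was 0.97, and they were 24 of the 75 higher genes. Hist1h4i was at 59.1 and 186 FPKM in WT cells and 116 and 127 in T KO cells, and Hist2h2aa1 at 577 and 1302, and 1120 and 997. The median in T KO cells was 0.04. Summed over the list, the level was 26149 FPKM in WT at TS12 against 42052 to 49330 in the other 3 libraries. In the WT TS12 library 58 of the 62 genes were lowest, against 31.1% of all counted genes. In limma 1 of 62, Hist3h2ba, rose (1.05, SE 0.177, adjusted p = 0.048), against 0.196% of all genes tested. Hist1h2ap fell (-5.27, SE 0.464, adjusted p = 0.00057), being listed at 0 in both TS13 libraries. Members share near-identical sequence, so single histone values, and that one above all, are uncertain. Many of the clustered histone mRNAs exist only in S phase. The proliferation genes had a median of -0.03 with 0 of 21 at 2-fold, with Pcna at 539 and 523 FPKM and Mki67 at 57.8 and 71.7. The part of the cell cycle in the histone values was not tested.

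Ribosomal protein genes had a median of 0.71 in WT cells and 0.20 in T KO cells, and genes of oxidative phosphorylation 0.64 and 0.07. In WT cells 1 of 81 and 1 of 73 were at least 2-fold higher, Rps21 and Atp5e, against 0.962% of all counted genes. Summed ribosomal protein levels were 83609 and 127439 FPKM in WT cells and 97823 and 113538 in T KO cells. Rps27 rose, from 220 to 432 FPKM in WT cells and from 277 to 1061 in T KO cells (1.45, SE 0.244, adjusted p = 0.048 in limma), but retrocopies of such genes share their sequence and leave single values uncertain. The WT TS12 library was the lowest of the 4 for 64 of 81 ribosomal protein and 49 of 73 oxidative phosphorylation genes, against 31.1% of all counted genes.

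Short genes shared this pattern. By the span of the RefSeq gene on the genome, not its transcript, 236 counted genes were under 2 kb, and their median difference was 0.60 in WT cells and 0.00 in T KO cells. Of them 39 (16.5%) were at least 2-fold higher, against 1.44% of genes of 2 to 10 kb and 0.211% of genes of 10 to 50 kb. Without clustered histones the median under 2 kb was 0.36 over 179 genes, of which 16 were at least 2-fold higher.

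Of the genes lower at TS13, many were high in the WT TS12 library alone. In 18 of the 30 (60.0%) that library lay at least 2-fold above each of the other 3. Zfp488 was at 171 FPKM there against 15.0 to 25.8 in the others, the receptor genes Olfr613 and Vmn1r58 at 45.3 and 37.1 against at most 6.45, and Grk4 at 15.3 against at most 1.38. Arsb (24.9 and 3.38 FPKM) and Fut8 (63.8 and 20.1 FPKM), both of glycan metabolism, showed the same pattern. So did Pou5f1, Aldh1a2, Lefty2 and Fabp7. Clones that were not counted behaved alike: 4930470H14Rik was at 285 FPKM in WT cells at TS12 and at 21.5 to 34.6 in the others. Leaving out every gene in which the WT TS12 library lay at least 2-fold apart from the other 3 left 12 lower and 68 higher genes. This removal uses the same values that called the genes. The 30 lower genes were likewise picked for a WT TS12 value above that of TS13. Standing apart in that library is thus partly set by the choice, and no share over all counted genes was taken for it.

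Of the 75 genes higher in WT cells, the WT TS12 library was the lowest of the 4 for 64 (85.3%), against 31.1% of all counted genes. The 75 were picked for a WT TS12 value below that of TS13, so the larger share is partly set by the choice. For 7 of them that library was at least 2-fold below each of the others, among them Mt1, Hba-a1 and Airn. The T KO pair shares no library with the WT pair. There 14 of the 75 (18.7%) were also at least 2-fold higher, against 0.67% of the genes counted in that pair. That share leaves out genes under 5 FPKM in the T KO pair, while the 14 include some. Above 0 were 57 (76.0%), against 46.5% of all counted genes. Seen from the other side, 12 of the 53 genes higher in T KO cells (22.6%) were higher in WT cells, against 0.962% of all. Of the 30 lower genes, 5 (16.7%) were also lower by at least 2-fold in T KO cells, against 0.809% with the same limit. Below 0 were 18 (60.0%), which is not far from all counted genes, of which 46.5% were above 0. From the other side 4 of 64 (6.25%) were lower in WT cells, against 0.385% of all. No gene was at least 2-fold apart in opposite directions.

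The remaining lists had medians close to that of all genes in WT cells and 0 members 2-fold apart. The median was 0.13 for genes of the epithelial-mesenchymal transition, where Cdh1, the epithelial cadherin, was at 6.77 and 3.73 FPKM and Vim, which encodes vimentin, at 92.8 and 118. It was 0.17 for extracellular matrix genes, 0.07 for cadherins and protocadherins, 0.04 for ephrins and Eph receptors, 0.03 for FGF ligands and receptors and -0.08 for Hedgehog genes. Gut endoderm genes had 0.16, with the keratin genes Krt8 (46.1 and 35.8 FPKM) and Krt19 (6.23 and 11.6 FPKM) on opposite sides. Cyclins and inhibitors had -0.08, p53 targets 0.05, genes of amino acid stress -0.03 and of DNA methylation 0.02. Germ cell genes stood higher, with a median of 0.58 over 4 genes that the summed level of 156 and 244 FPKM rests on mainly through Ifitm1 (119 and 193 FPKM), which mesoderm expresses too.

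Other genes among the 12 highest in WT cells have few values to compare. Ier3, an immediate early gene, was at 1.17 and 5.91 FPKM in WT cells and 1.94 and 2.53 in T KO cells. It was the only 1 of 7 counted dissociation stress genes 2-fold apart, with Hsp90aa1 at 1131 and 1121 FPKM. Rnaset2a was at 5.89 and 32.6 FPKM in WT cells but 22.6 and 11.2 in T KO cells, and its near-identical copy makes the value uncertain. Cisd3, an iron-sulphur protein of mitochondria, was at 1.23 and 5.08 FPKM.

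Genes with at least 20 FPKM in both WT libraries, where counting error is small, included 1 at least 2-fold lower at TS13. This was Fut8, followed by Fam50a (41.9 and 21.6 FPKM), Spin2c (50.3 and 30.9 FPKM) and Ccdc124 (39.0 and 23.9 FPKM). Of these Spin2c alone was also lower in T KO cells, at 18.8 and 9.41 FPKM. The highest in that range were Hbb-y, Hba-x and 6 clustered histones. The lactate dehydrogenase subunit gene Ldhb was at 27.6 and 11.0 FPKM in WT cells and at 21.3 and 18.4 in T KO cells.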

How the data were processed

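The authors deposited FPKM, with each symbol on 1 row and each library in 1 column. The submitters' processing notes name Cufflinks 2.2.1, Cuffdiff, TopHat2 2.1.0, Bowtie 1.1.2, SAMtools, Picard 1.103 and bedtools 2.23.0, and the mm10 build. What each tool did, which annotation was used and how libraries were scaled is not given in the sources used here. Count models were not used on these values. Depth was estimated from the steps of low FPKM values: with gene spans of up to 6 kb, 99 to 1096 genes per library lay within a relative tolerance of 0.0003 of a whole number of up to 15 fragments, against 0 to 5 with spans shuffled. The depth taken was the candidate with the most such genes. Shuffled spans were scored at that depth only, so the contrast overstates the backing for the estimate.

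Differences are of log2(FPKM + 1). limma 3.58.1 in R 4.3.3 was run with trend and 1 residual degree of freedom per gene, and its threshold was an adjusted p of 0.05. Python 3.11.15 with pandas 2.3.3 and numpy 2.4.6 made the other values. Genes named are T, Sox2 and Tbx6, the 12 highest and 12 lowest differences, the 8 highest and 8 lowest with 20 FPKM in both libraries, and of each list those at least 2-fold apart and up to 6 others by level. Some list members outside this rule, such as those under 5 FPKM, as well as Ramp2, Ldhb, the genes at the edges of the thresholds and the clone, were chosen after their values were seen. The members and lists were chosen with earlier results of these data known. Promoter windows and gene spans are from RefSeq GRCm38.p6. Of the counted genes 99.8% had a span. The chromatin, single-cell and other bulk samples were not analysed here, apart from 2 libraries set beside these in the closing section. Alternatives were the pseudocount, the level minimum, scaling, background subtraction, the fold and the gene classes left out.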

Additional observations from a re-analysis of the deposited data

Results flagged for a closer look

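The WT and T KO pairs moved in opposite directions for several results, each resting on 1 library per group and stage, and none of these differences was tested. The values below are the WT difference minus the T KO difference, in log2(FPKM + 1). Genes given are those at least 2-fold apart in WT cells that differed by at least 0.5 the other way in T KO cells. Others went the other way by less. Rnaset2a, 1 of a near-identical pair, stood at 3.24. The histone genes Hist1h2ac and Hist2h2ac stood at 1.98 and 1.87, and in both the WT TS12 library was the lowest of the 4. Alg14, of N-glycan synthesis, stood at 2.00, from 6.36 and 15.8 FPKM in WT cells and 15.8 and 8.58 in T KO cells. Ap1s3 stood at -3.12 and Arsb at -3.44, and in both the WT TS12 library was at least 2-fold above the other 3. H2-Q4, a histocompatibility gene, stood at -1.81, from 8.84 and 3.20 FPKM in WT cells and 2.44 and 4.14 in T KO cells.

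Only lists of at least 5 counted genes with medians of opposite sign and a gap of at least 0.75 are given here. They were axial progenitor genes, with a gap of 0.89, Wnt targets and antagonists, with 0.85, and Hox cofactors, with -0.81. Other lists, among them BMP and presomitic mesoderm genes, also had medians of opposite sign, with smaller gaps. The labels give different strains for the genotypes, which cannot be told apart from the genotype here. The same holds for the Y-linked genes and the imprinted RNAs H19, Meg3 and Rian, whose levels differed between the genotypes at both stages.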

How the results depend on the processing

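With 1 library per group, leaving out a library leaves no residual degree of freedom, so that alternative could not be run. No paired analysis was possible because each group has a single library and thus no replicates to match by number. The genotype term of the limma fit takes both stages within a genotype together, and the fit without it is given below. Counts of at least 2-fold higher and lower WT genes, 75 and 30 as reported, moved to 32 and 21 with a pseudocount of 5, to 44 and 14 with a minimum of 20 FPKM, to 103 and 75 with a minimum of 1 FPKM and the same with no minimum, to 493 and 114 at 1.5-fold, and to 91 and 48 with all symbols kept. With alternatives chosen after seeing the data they were 51 and 29 without clustered histones and 68 and 12 without genes in which WT TS12 stood apart. The latter setting removes genes by the same values that called them. Other settings stayed within 1.5 times: 80 and 37 (pseudocount of 0.5), 63 and 32 (upper-quartile scaling), 75 and 30 (median-ratio scaling) and 85 and 26 (background subtracted). The share of calls that were higher was 71.4%, and 57.9% to 85% over these settings. The median of all genes, 0.05 as deposited, was 0.01 with upper-quartile scaling, 0.05 with median-ratio scaling and 0.09 with background subtracted.

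In limma, 16 rising and 5 falling genes became 8 and 4 with a pseudocount of 5, 5 and 1 with a minimum of 20 FPKM (3961 genes tested), 5 and 4 with upper-quartile scaling, 18 and 6 with background subtracted, and 4 and 2 against a minimum fold of 1.5. Without the genotype term 1 rose, Hbb-y (adjusted p = 0.012), and 0 fell, with 398 genes at an unadjusted p under 0.05. Without that term, level differences between WT and T KO cells enter the residual of the fit. How far they account for the lost calls was not tested. Hbb-y passed in 6 of 6 of these alternatives, Hba-a1 in 5, and Mt1, Mt2, Pou5f1, Cdx1 and Hist1h2ap in 4. Fst, Plagl1 and Hba-x passed in 3, and the others in 1 or 2. With no genotype term the adjusted p of Pou5f1 was 0.99 and that of Cdx1 0.42. Of 115 genes checked singly 0 changed sign, 52 dropped under 2-fold with a pseudocount of 5 and 1 with background subtracted. The 115 were the genes at least 2-fold apart in WT cells, T, Sox2 and Tbx6, and the 8 lowest with 20 FPKM in both libraries. Most were picked for a large difference, so a kept sign is partly set by the choice. Other list members under 2-fold were not checked singly. All 39 list medians kept their sign under 3 alternatives. Depth limits genes near 5 FPKM most, where counting error at TS12 is 9.55%.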

Other observations

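Another T+ WT library of TS12 in the series was made with a different kit from about 2500 cells and was normalised in a separate table, so its levels are given as values only. In it Hoxc10 was at 237 FPKM, Hoxa10 at 38.3 and Hoxc9 at 27.3. Hba-x was at 5119 FPKM and Hbb-y at 4508, Mt1 at 101 and Mt2 at 57.7. Pou5f1 was listed at 0, Cdx1 was at 4.87 FPKM, Lefty2 at 0.844, Fst at 8.07 and Aldh1a2 at 13.0.

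The Tbx6+ library of Theiler stage 14 titled WT, whose title and source name contradict each other on genotype, belongs to the same table as the 4 T+ libraries and is another sorted fraction. In it Hoxc10 was at 34.5 FPKM, Hoxa10 at 25.6 and Hoxc9 at 32. Hbb-y was at 0.0472 FPKM, Hba-x at 0.0487, Mt1 at 0.647 and Mt2 at 0. Pou5f1 was at 6.92 FPKM, Cdx1 at 1.77, Fst at 11.3 and Aldh1a2 at 6.58. The globins and metallothioneins that rose in T+ cells were thus at most 0.647 FPKM for the 4 genes given, while Hoxa10 and Hoxc10 were above every T+ library of that table.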
